A study of Mus musculus with 9 samples.

Results

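Integrins are the receptors through which a myoblast holds on to its matrix. MyoD1 peaks at the loci of 10 integrin subunit genes, *Itga3*, *Itga4*, *Itga5*, *Itga6*, *Itga7*, *Itga9*, *Itgav*, *Itgb1*, *Itgb3* and *Itgb5*, were compared between myoblasts without and with induced MyoD1. The genes were picked by name. A peak belonged to a locus when it overlapped the gene body or the 10 kb on either side (mouse build mm10, GENCODE M21). This gave 137 of 116126 peaks over 6 libraries, which merged into 62 of 58309 regions. *Itga4* had 0 peaks in every library, so every value below comes from the other 9 loci.

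The peaks come from CUT and RUN with the anti-Flag M2 antibody, in which a nuclease tethered to the antibody frees DNA near the tagged protein for sequencing. Both groups were C2C12, a mouse skeletal muscle myoblast line, carrying endogenously 3xF-HaloTagged MyoD1 together with a dox-inducible 3xF-Halo-MyoD1 transgene. The 3 no dox libraries were untreated, and the 3 +dox libraries received doxycycline for 6 h, with both groups moved to differentiation medium at the same time. The comparison asks whether a raised level of this myogenic transcription factor changes where it sits. The tagged line was a single clone, the transgene was driven by a TRE3G promoter, and the control group carried it too. Libraries from untagged wild-type cells were not analysed here, so no background from cells without the Flag tag stands beside the values. A signal of this kind cannot tell more bound cells from more protein bound in each cell.

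An integrin is a pair of an alpha and a beta chain that spans the plasma membrane and links the extracellular matrix to the actin cytoskeleton. The chain encoded by *Itgb1* pairs with most of the alpha chains here, and which alpha chain it meets sets the ligand. In skeletal muscle the integrin made of the alpha 7 and beta 1 chains binds laminin and anchors fibres to the basement membrane, while myoblasts also use fibronectin receptors for adhesion and migration. MyoD1 binds as a dimer to E-boxes, sites of the form CANNTG, and CAGCTG is the form it prefers.

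Peak height is the maximum signal of a peak in CPM, coverage scaled by the authors to library size, and its percentile is the share of peaks in the same library's list that are lower, with ties counted at their middle. A consensus region was called in at least 2 of the 3 libraries of a group, and the no dox consensus regions are the Core targets. A +dox consensus region is an Expanded target when it shares not even 1 bp with a Core target. A region is named by its gene and the distance of its maximum from the gene start, with a plus sign pointing into the gene.

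The lists were unequal, and the libraries numbered 3 stood apart in both groups. The +dox replicate 3 list held 53661 peaks, against 9389 to 13877 in the other 5, at 8030000 alignments against 2868000 to 4667000. The lowest total signal of a listed peak was 354 and 336 in no dox replicate 3 and +dox replicate 3, against 837 to 904 elsewhere. Peaks near a transcription start made up 34.9% and 26.7% of those 2 lists, against 53.0% to 62.4% elsewhere. Results are therefore also given for replicates 1 and 2 alone. Core targets lay at all 4 muscle loci checked, *Myod1*, *Myog*, *Des* and *Chrna1*, and at 0 of 3 loci of other lineages, *Alb*, *Cd3e* and *Gfap*. Over all 21911 protein-coding genes the share with a Core target was 35.5%, so these few loci say little about specificity. The Core target of *Myog* had no +dox consensus region, with 0 peaks at the locus in +dox replicates 1 and 2. *Gfap* had 3 peaks in +dox replicate 3.

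The sequence under the peaks shows how unlike the sites were. Printed first are 200 bases around the maximum of 4 regions called in all 6 libraries, then of 1 more such region, whose maximum lay near a CAGCTG, and of the higher of the 2 Expanded targets inside *Itgb5*. They are on the plus strand of GRCm38, the assembly behind mm10, with CAGCTG in capitals where present.
Itga5 +7437, chr15:103359226-103359425: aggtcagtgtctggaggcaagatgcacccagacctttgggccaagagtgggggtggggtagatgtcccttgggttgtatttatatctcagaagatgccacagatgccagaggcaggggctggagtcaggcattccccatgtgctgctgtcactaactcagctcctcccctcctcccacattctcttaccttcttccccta
Itga3 +3675, chr11:95073026-95073225: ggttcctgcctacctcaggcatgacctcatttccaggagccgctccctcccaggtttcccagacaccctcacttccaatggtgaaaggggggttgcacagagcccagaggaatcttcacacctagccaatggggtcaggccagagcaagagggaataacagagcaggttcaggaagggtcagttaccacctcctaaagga
Itgb1 -278, chr8:128685276-128685475: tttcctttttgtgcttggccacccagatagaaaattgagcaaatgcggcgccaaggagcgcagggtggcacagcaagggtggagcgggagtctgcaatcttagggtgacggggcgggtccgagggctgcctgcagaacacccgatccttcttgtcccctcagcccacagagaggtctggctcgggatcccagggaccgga
Itgb3 +16976, chr11:104624876-104625075: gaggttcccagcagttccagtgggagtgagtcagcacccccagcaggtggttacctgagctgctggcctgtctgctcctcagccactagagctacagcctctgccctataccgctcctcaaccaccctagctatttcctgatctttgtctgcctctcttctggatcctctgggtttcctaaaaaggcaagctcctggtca
Itgb5 +87211, chr16:33916776-33916975: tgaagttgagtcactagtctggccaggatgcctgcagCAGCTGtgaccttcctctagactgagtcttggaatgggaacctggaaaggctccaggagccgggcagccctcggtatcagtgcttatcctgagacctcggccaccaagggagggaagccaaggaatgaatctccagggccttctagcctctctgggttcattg
Itgb5 +48561, chr16:33878126-33878325: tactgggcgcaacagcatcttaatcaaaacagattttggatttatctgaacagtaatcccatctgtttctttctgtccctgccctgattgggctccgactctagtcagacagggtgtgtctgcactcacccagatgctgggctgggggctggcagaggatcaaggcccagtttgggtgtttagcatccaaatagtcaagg
Only *Itgb5* +87211 of these 6 windows held CAGCTG. The windows of *Itgb3* +16976 and *Itgb5* +87211 each held 1 TGANTCA, the letters of an AP-1 site. At the starts of *Itga5* and *Itgb3* the maximum lay 9 and 8 bp from a CAGCTG in an annotated untranslated region, shown with 12 bases on each side.
Itga5 +12, chr15:103366745-103366774: tggctccggcccCAGCTGgaggccggtggt
Itgb3 +26, chr11:104608019-104608048: ccgcaggaaaagCAGCTGcgggtgccaggc

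At the laminin receptor genes, binding was found in both groups at *Itga3* and *Itga6*, and near *Itga7* it was mostly outside the gene. *Itga3*, whose product binds laminin in partnership with the beta 1 chain, had 3, 6 and 4 peaks in the no dox libraries and 3, 4 and 11 in the +dox libraries. The groups overlapped, and +dox replicate 3 alone exceeded the no dox range. It held 3 Core targets and 0 Expanded targets.

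An intron region, *Itga3* +3675 (chr11:95072251-95073450), was called in all 6 libraries. Its percentile was 76.0, 87.2 and 78.4 without dox and 52.8, 57.6 and 93.2 with dox. It was lower in +dox replicates 1 and 2 than in any no dox library and higher in +dox replicate 3. The mean fell from 80.5 ± 5.89 to 67.9 ± 22.0 (SD, n = 3 each), a difference smaller than the spread of the +dox libraries (exact two-sided permutation p = 0.4, where 0.1 is the smallest possible).

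The neighbouring region *Itga3* +1275 (chr11:95073751-95078200) runs over the gene start and was also called in all 6 libraries. Its percentile was 67.5, 56.2 and 84.8 without dox and 77.7, 71.0 and 93.9 with dox (exact two-sided permutation p = 0.4). Within same-numbered libraries it was higher with dox in 3 of 3 pairs, by 10.2, 14.8 and 9.15 points (p = 0.25 in an exact sign-flip test, two-sided, which with 3 pairs cannot go lower). At 4450 bp it was broad, and the maxima of the 6 libraries lay up to 1500 bp apart. It held 6 CAGCTG, the nearest 184 bp from the maximum. The remaining Core target at the locus, *Itga3* +35275 (chr11:95040001-95041900), lay past the gene's end at the promoter of *Pdk2*, which encodes a pyruvate dehydrogenase kinase. Its percentile was 72.4 and 83.5 in no dox replicates 1 and 2 and 88.1, 83.0 and 93.2 with dox, with no peak of no dox replicate 3 in this region. The adjacent region *Itga3* +34525 (chr11:95042001-95043550) also lay at the *Pdk2* promoter. It was called only in the libraries numbered 3, at percentile 76.1 without dox and 84.0 with dox.

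*Itga6* encodes another laminin receptor chain. It had 1, 1 and 0 peaks without dox and 1, 1 and 3 with dox. Its single Core target, *Itga6* +41210 (chr2:71786451-71787350), lay at an internal transcript start. The percentile there was 48.5 and 51.0 in no dox replicates 1 and 2 and 68.9, 50.8 and 68.0 with dox. It held no CAGCTG.

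*Itga7* encodes the alpha chain of the main laminin receptor of muscle fibres. It had 0, 0 and 3 peaks without dox and 1, 0 and 6 with dox, so 9 of its 10 peaks came from the libraries numbered 3. The Expanded target *Itga7* -67 (chr10:128933501-128934850) sat at the gene's own promoter. It was called in +dox replicate 1 at percentile 23.0, with 14 alignments at the maximum, and in +dox replicate 3 at percentile 4.90, with 6 alignments. These are low values, and no other library had a peak there. *Itga7* -2142 (chr10:128931151-128932050) was called only in the libraries numbered 3, at percentile 47.9 without dox and 94.2 with dox, and its maximum lay 4 bp from a CAGCTG.

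A large region upstream, *Itga7* -11442 (chr10:128917651-128924050), was called in all 6 libraries with percentiles of 84.8, 80.4 and 99.5 without dox and 94.3, 83.6 and 99.9 with dox. It belonged to the locus by 233 bp, and the peaks of only 2 libraries reached that far. Its maximum lay at the starts of *Bloc1s1* and *Rdh5*, and the maxima of single libraries lay up to 4750 bp apart. The Core count, the number of genes with a Core target, the CAGCTG share and the median percentile difference are also given without this region. The other counts below include it.

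**Figure D1:**
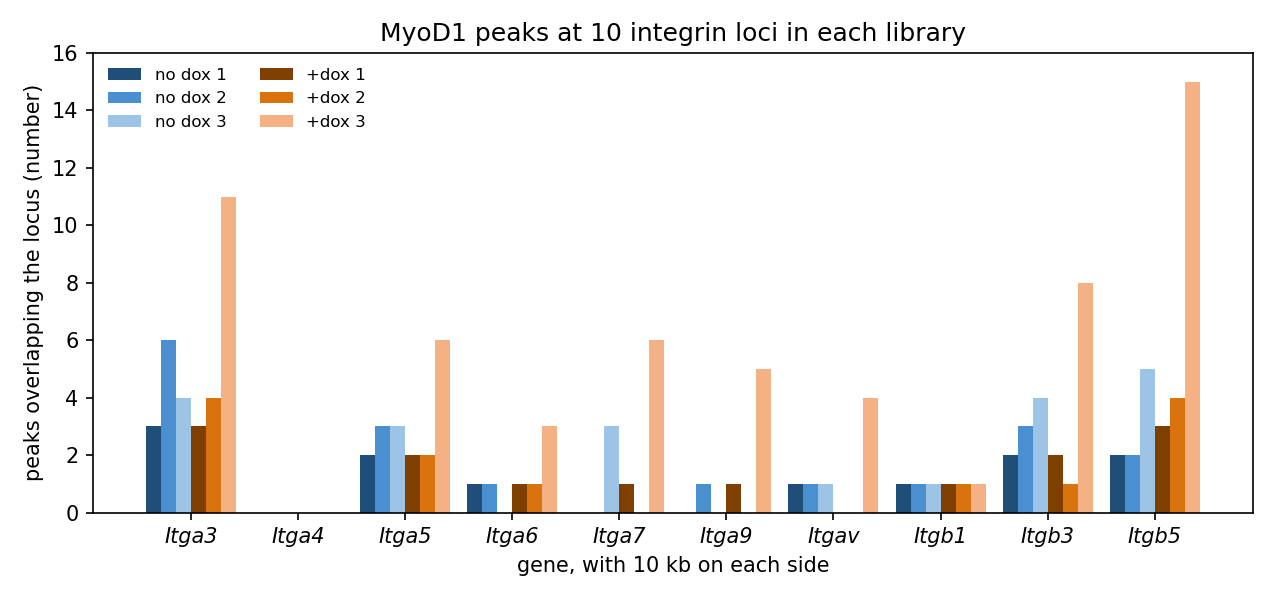
Bars give the number of peaks that overlap each integrin gene with 10 kb on each side, on a linear axis from 0, with 1 bar for each of the 3 no dox (blue) and 3 +dox (orange) libraries. The bar of +dox replicate 3 is the tallest at 8 loci, reaching 15 at Itgb5, while Itgb1 had 1 peak in each library and Itga4 none.

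Among the receptors for fibronectin, vitronectin and other ligands with an RGD motif, *Itga5* carried the highest binding. *Itga5*, the alpha chain of the classical fibronectin receptor, had 2, 3 and 3 peaks without dox and 2, 2 and 6 with dox. Its intron region, *Itga5* +7437 (chr15:103358301-103360750), had percentiles of 90.5, 90.2 and 98.6 without dox and 82.3, 90.7 and 98.9 with dox. The groups overlapped, with means of 93.1 ± 4.74 and 90.6 ± 8.31 (SD, n = 3 each, exact two-sided permutation p = 1). The maximum held 76, 70 and 132 alignments without dox and 66, 100 and 280 with dox. This region of 2450 bp held no CAGCTG, also within 100 bp outside its ends. The 200 bases around the maximum held 2 CANNTG.

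The promoter region *Itga5* +12 (chr15:103365451-103367450) was called in all 6 libraries but was lower. Its percentile was 21.4, 64.3 and 38.6 without dox and 40.6, 42.4 and 79.9 with dox (exact two-sided permutation p = 0.5). So the strong site of *Itga5* was inside the gene, in every library, and not at its start.

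*Itgav* encodes the alpha chain that pairs with the beta 3 and beta 5 chains. It had 1, 1 and 1 peaks without dox and 0, 0 and 4 with dox. All 3 no dox peaks fell in 1 region, *Itgav* +88229 (chr2:83812251-83813550), past the gene's end at the promoter of *Fam171b*. Its percentile was 13.6, 29.1 and 47.9 without dox, and in the +dox group only replicate 3 had a peak, at 54.0. It is a Core target with no +dox consensus region.

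*Itgb3*, a beta chain of vitronectin receptors, had 2, 3 and 4 peaks without dox and 2, 1 and 8 with dox. Its intron region *Itgb3* +16976 (chr11:104624551-104626850) was called in all 6 libraries with percentiles of 64.6, 74.2 and 78.4 without dox and 23.0, 78.8 and 91.4 with dox (exact two-sided permutation p = 1). The +dox libraries lay on both sides of the no dox range. The promoter region *Itgb3* +26 (chr11:104607401-104608850) was called in replicates 1 and 3 of each group, at percentiles of 21.4 and 61.2 without dox and 63.1 and 75.3 with dox. A second intron region, *Itgb3* +55626 (chr11:104662801-104664150), was a Core target without a +dox consensus region. It had percentiles of 29.1 and 47.9 in no dox replicates 2 and 3, and of 86.9 in +dox replicate 3, so its missing consensus rests on the absence of calls in +dox replicates 1 and 2.

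*Itgb5* encodes the beta chain of another vitronectin receptor. It had 2, 2 and 5 peaks without dox and 3, 4 and 15 with dox, along 120 kb of gene. Over the 6 libraries that made 31 peaks, as many as at *Itga3*, but they fell in 16 merged regions against 9. All 3 Core targets were introns far from the gene start. *Itgb5* +87211 (chr16:33916001-33918450) was called in all 6 libraries, with percentiles of 57.7, 86.0 and 87.1 without dox and 29.7, 79.3 and 96.8 with dox (exact two-sided permutation p = 0.8). *Itgb5* +59761 (chr16:33888751-33890850) had 29.3 and 73.4 in no dox replicates 1 and 3, and 35.5, 56.1 and 96.2 with dox. *Itgb5* +111761 (chr16:33941051-33942100) had 51.0 and 27.5 in no dox replicates 2 and 3, and 42.4 and 77.0 in +dox replicates 2 and 3.

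The other Expanded targets, 2 of the 3, lay in introns of *Itgb5*. *Itgb5* +48561 (chr16:33877901-33878650) was called in +dox replicates 2 and 3, at percentiles of 69.4 and 93.2 with 40 and 84 alignments. *Itgb5* +30561 (chr16:33859951-33860600) was called in +dox replicates 1 and 3, at 40.6 and 68.0 with 20 alignments in each. Neither held a CAGCTG, and no no dox library had a peak in either. Each rests on +dox replicate 3 and 1 further library.

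*Itgb1*, the partner of most alpha chains, had exactly 1 peak in each of the 6 libraries. They formed 1 region at its promoter, *Itgb1* -278 (chr8:128684951-128686400), with percentiles of 36.6, 67.4 and 47.9 without dox and 76.8, 46.9 and 83.1 with dox. The group means were 50.6 ± 15.6 and 68.9 ± 19.3 (SD, n = 3 each). The groups overlapped and the difference was within the spread (exact two-sided permutation p = 0.3). It held no CAGCTG. *Itga9*, whose product binds tenascin-C and VCAM-1, had 0, 1 and 0 peaks without dox and 1, 0 and 5 with dox. Its 7 regions were each called in a single library, so the longest gene of the group (294 kb) had no consensus region. *Itga4*, the alpha chain that binds VCAM-1 and fibronectin, had no peak within 97.7 kb of locus. Relaxed calling sets no common floor, so an absent call does not show absent binding.

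**Figure D2:**
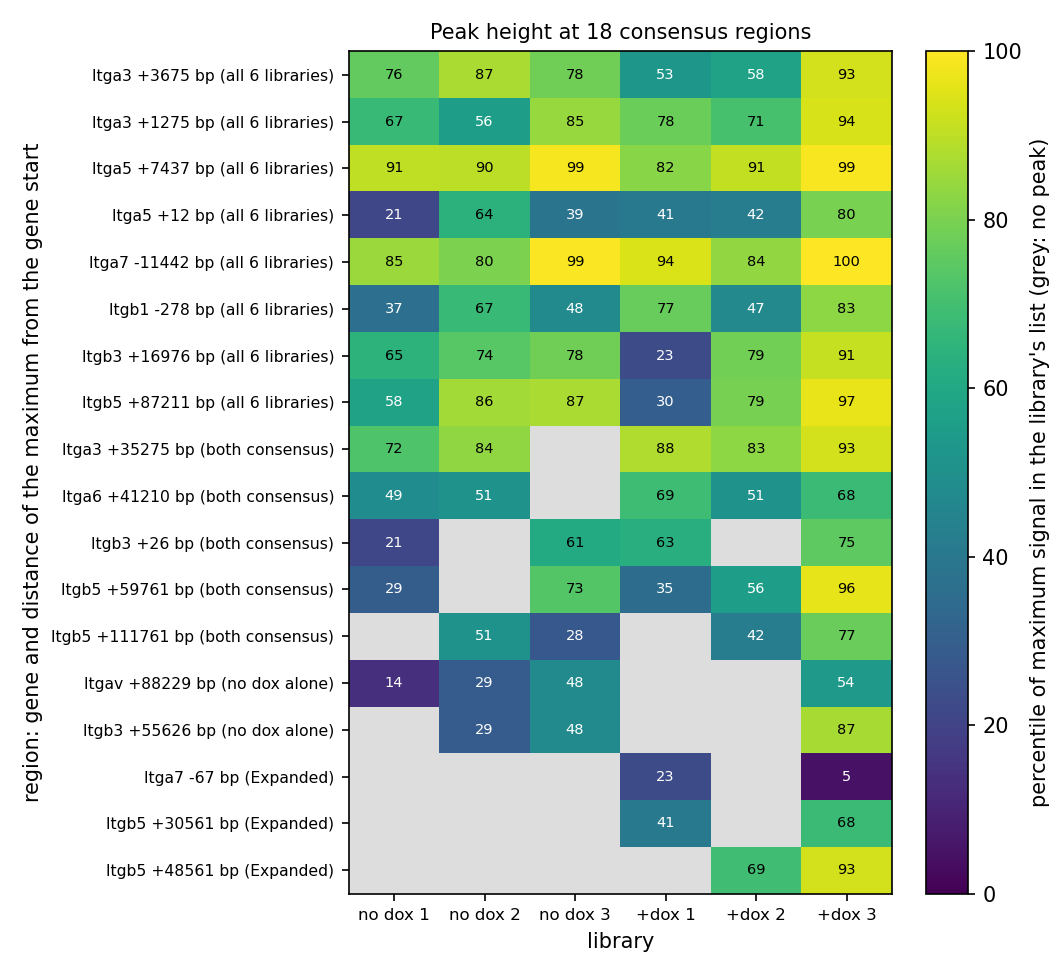
Each row is 1 of the 18 consensus regions, named by gene and by the distance of its maximum from the gene start in bp, and each column is a library. Colour and number give the percentile of maximum signal in the library's own list, and grey means no peak. Itga5 +7437 stays at 82.3 or above in each column, and 2 of the 3 Expanded rows and both rows marked no dox alone hold values below 50.

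Ordered by the lowest value that the highest peak of a locus took in any library, *Itga5* came first, with a top percentile between 82.3 and 98.9 over the 6 libraries. *Itga3* followed, between 76.0 and 93.9, or from 71.0 without the *Pdk2* promoter region that gave its top values in +dox replicates 1 and 2, then *Itgb3*, between 63.1 and 91.4, *Itgb5*, between 40.6 and 96.8, and *Itgb1*, between 36.6 and 83.1. These ranges overlapped between each gene and the next, so neighbours in this order were not separated beyond their spread. *Itga6* lay between 48.5 and 73.2 in 5 libraries and *Itgav* between 13.6 and 60.2 in 4, the no dox values being those of the *Fam171b* promoter region. *Itga7* reached 99.9 through the upstream region and had a peak in 3 libraries only.

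Peak numbers differed between the groups by less than the +dox libraries differed among themselves. The libraries had 12, 18 and 21 integrin peaks without dox and 14, 13 and 59 with dox. The means were 17 ± 4.58 and 28.7 ± 26.3 (SD, n = 3 each). Over replicates 1 and 2 the means were 15 and 13.5, and the 2 libraries numbered 3 had 21 and 59. As a share of each list, integrin peaks were 0.128%, 0.130% and 0.157% without dox and 0.112%, 0.0980% and 0.110% with dox. The means of these shares were 0.138% ± 0.0161 and 0.107% ± 0.00743 (SD, n = 3 each). The shares rest on few peaks, were not tested, and were not computed for other sets of genes. So no trait of the integrin loci can be read from them. A share also falls when a list grows at other places, which was not tested. The +dox lists held 12536, 13260 and 53661 peaks, against 9389, 13877 and 13403 without dox.

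Most regions came from 1 library. Of the 62 regions, 30 were called in +dox replicate 3 alone, 48.4% against 59.2% of all merged regions. A further 5 came from 1 other library, and 9 from 1 library of each group, of which 6 were called in both libraries numbered 3. The other 18 regions were consensus regions. Of the 30, 23 lay in introns (76.7%) and 6 within 1 kb of a transcription start (20%). Over all regions called in +dox replicate 3 alone these shares were 51.6% and 14.8%. The choice of loci by gene body favours introns. Their maximum was 1.25 CPM at the median, which is 10 alignments, and between 6 and 34 alignments in all. The lowest peak in the +dox replicate 2 list had a maximum of 1.67 CPM, and 24 of the 30 (80%) were below it, against 68.0% of all regions called in +dox replicate 3 alone. For +dox replicate 1, with a lowest peak of 1.39 CPM, it was 18 of 30 (60%) against 54.4%. No peak of those lists was as low. Against each no dox list it was 3 of 30 (10%), with 12.9% to 13.0% over all such regions.

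**Figure D3:**
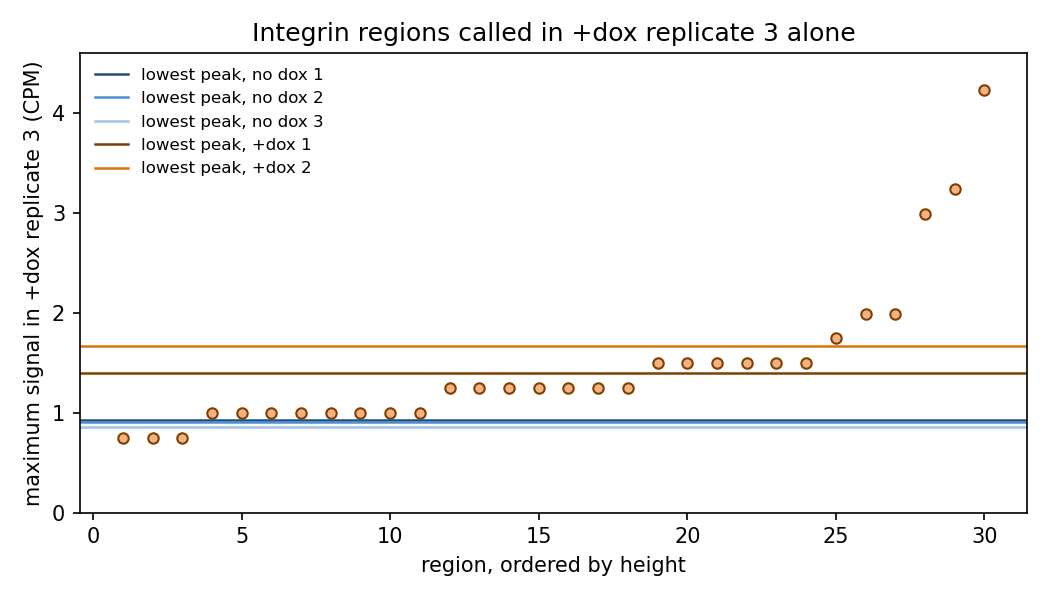
Points are the 30 integrin regions called in +dox replicate 3 alone, in order of their maximum signal in that library (CPM, linear axis), and lines give the lowest maximum signal of any peak in each of the other 5 lists. Of the points, 24 lie under the line of +dox replicate 2 and 18 under that of +dox replicate 1, while 3 lie under the no dox lines.

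By consensus, the loci held 15 Core targets, 16 +dox consensus regions and 3 Expanded targets. The Expanded share of the +dox consensus regions was 18.8%, with 38.5% over all 13908. Without +dox replicate 3 there were 0 Expanded targets, and with replicates 1 and 2 alone, both needed for a consensus, there was 1. Leaving out no dox replicate 1, 2 or 3 moved the count the other way, to 7, 6 and 6. With a library left out, both others of its group were needed for a consensus. That is a stricter rule for the group, so these counts do not show the effect of a single library alone. With replicates 1 and 2 alone there were 10 Core targets in place of 15. In the other direction 2 of the 15 Core targets (13.3%) had no +dox consensus region, with 10% over all 9560 Core targets. No integrin region was called in 3 +dox and 0 no dox libraries, a pattern held by 1.09% of all merged regions.

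At the level of genes, 8 of 10 members had a Core target, all but *Itga4* and *Itga9*. The share was 35.5% over 21911 protein-coding genes and 42.9% over the 8861 genes in the members' range of length. Leaving out the region that only touches the *Itga7* locus makes it 7 of 10 and 14 Core targets. The only Core target of *Itgav* also counts through the flank, since it lies past the gene's end at the *Fam171b* promoter. With no flank there were 12 Core targets, while the shares over all genes include the flank. An Expanded target was found at 2 of 10, *Itga7* and *Itgb5*, against 25.6% of protein-coding genes and 31.3% of those of like length. A longer gene has more chances of a call, and the genes were chosen by name with earlier results known, so no test was made.

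**Figure D4:**
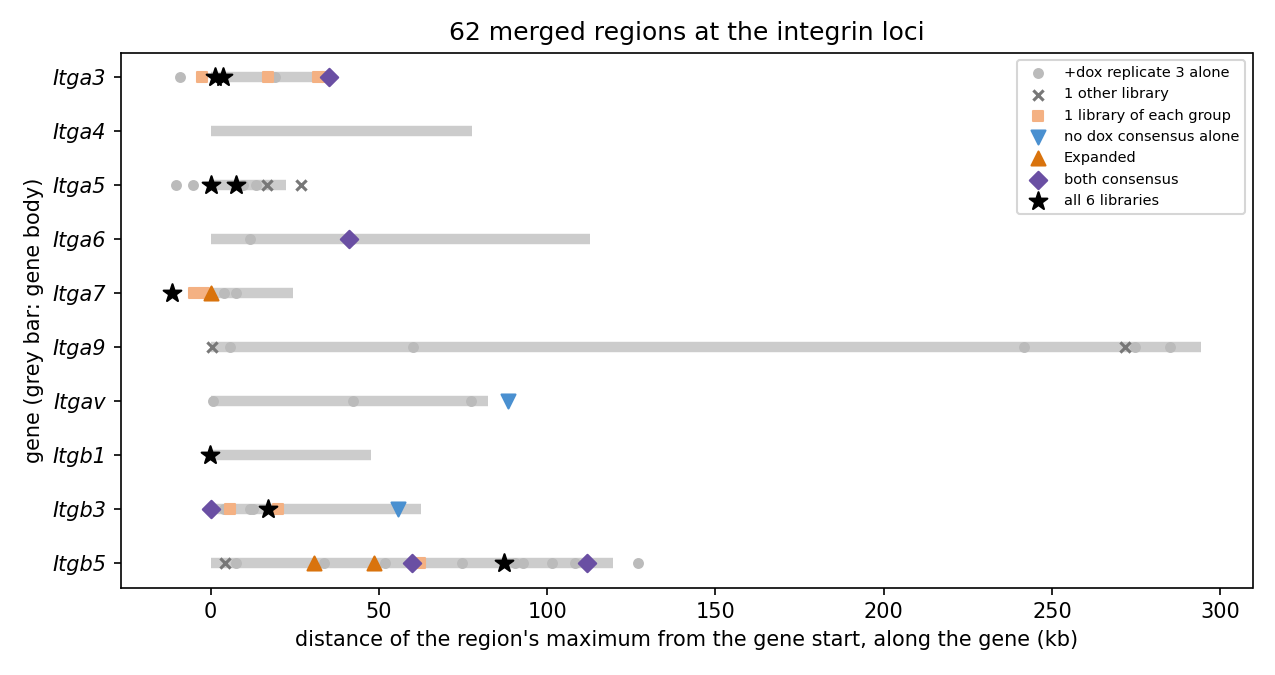
Each symbol is 1 of the 62 merged regions, placed by the distance of its maximum from the gene start along the gene (kb, linear axis), with the gene body as a grey bar. Stars mark the 8 regions called in all 6 libraries, which lie near the starts of Itga3, Itga5 and Itgb1, inside Itga5, Itgb3 and Itgb5, and upstream of Itga7.

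No region called in all 6 libraries, at the integrin loci or elsewhere, passed the main test for a change in height with dox. Of the 62 regions, 8 were called in all 6 libraries (12.9%, against 8.3% of all merged regions). In percentiles of the lists, 4 of the 8 were higher with dox and the median difference was 0.988 points, against 76.1% higher and 6.40 points over all 4838 shared regions. A list percentile depends on the other peaks in the list, and the +dox replicate 3 list was the longest. Which of the differences between the lists moved these values was not tested. Ranked among the shared regions only, 3 of 8 were higher and the median difference was -5.83 points, against 50.9% and 0.195 points over all. In replicates 1 and 2 the list percentile differed by -2.61 points with 3 of 8 higher, against 1.45 points and 58.9% over all. In the libraries numbered 3 it differed by 11.4 points with 8 of 8 higher, against 15.7 points and 98.1% over all. So the direction depended on the libraries and on the scale. Without the *Itga7* edge region the median over 7 regions was -2.44 points.

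None of the 8 had all +dox percentiles above all no dox percentiles, a pattern held by 23.7% of shared regions, and none had them all below, held by 0.0413%. Within same-numbered pairs, list percentiles were higher with dox in all 3 pairs at 2 of the 8, *Itga3* +1275 and *Itga7* -11442, and lower in all 3 at 0, patterns held by 35.7% and 0.992% of shared regions. Ranked among the shared regions, *Itga7* -11442 was higher in all 3 pairs and *Itga3* +3675 lower in all 3, patterns held by 18.4% and 16.1%, while *Itga3* +1275 was higher in 2 of 3. In limma, fitted to the log2 maximum signal of all 4838 shared regions with each library centred on its median, 0 regions were higher and 0 lower with dox at an adjusted p below 0.05 (0% and 0%), and 124 had an unadjusted p below 0.05. The smallest adjusted p of an integrin region was 0.984. The fitted log2 difference was -0.89 ± 0.41 (SE) at *Itga3* +3675 and between -0.60 and 0.43 at the other 7, negative at 5 of the 8 in all. With the replicate number as a block, 0 were higher and 1 lower of 4838, and *Itga3* +3675 had an adjusted p of 0.333. On CPM as deposited, without centring, the median shared region was 0.91 higher on the log2 scale and 96.1% of regions were higher, against 48.7% after centring, and again 0 passed, with 1158 at an unadjusted p below 0.05. On that scale all 8 integrin differences were positive, from 0.04 at *Itga3* +3675 to 1.36 at *Itga7* -11442, so the 5 negative ones turned with the scaling. The deposited CPM carry no spike-in scale, and differences here are relative to the median shared region.

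**Figure D5:**
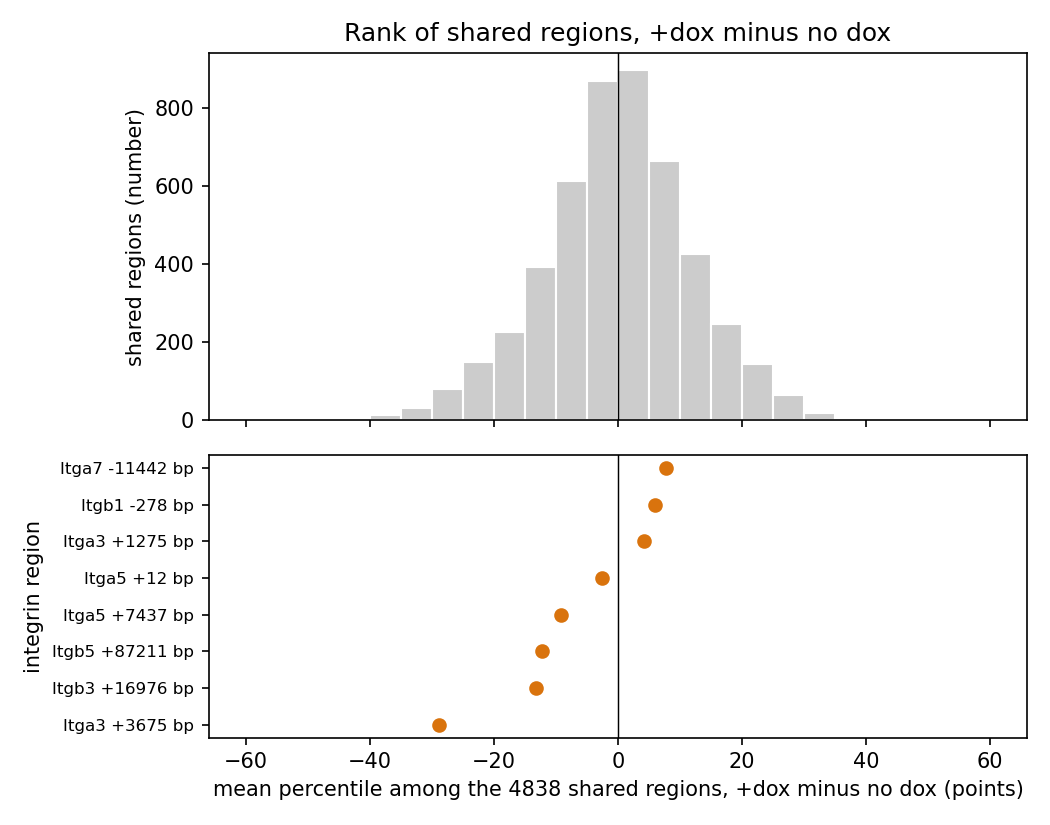
The upper panel counts all 4838 shared regions by the difference in mean rank among shared regions, +dox minus no dox, in percentile points, and the lower panel places the 8 integrin regions on the same axis. Integrin points run from -28.9 at Itga3 +3675 to 7.68 at Itga7 -11442, within the span of the histogram, and 3 of the 8 are above 0.

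The integrin regions lay in introns more often than at promoters. Of the 18 consensus regions, 12 (66.7%) had their maximum in an intron, against 37.0% of all consensus regions, and 8 (44.4%) within 1 kb of a transcription start, against 54.2%. Of the 8, 5 were at a start of the member gene and 3 at a start of another gene only. A maximum can be counted both in an intron and near a start. The loci were taken by gene body with 10 kb on each side, which favours introns over intergenic sites. Of all consensus regions 36.3% were intergenic, against 22.2% here. Regions of 1 gene are not independent either, so these shares are a description and no trait of integrin genes. The median width was 1450 bp, against 1400 bp.

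CAGCTG stood in most of the regions, usually away from the maximum. With 100 bp added on each side, 13 of 18 consensus regions held it (72.2%, 95% Wilson interval 49.1% to 87.5%, which covers counting error only), against 74.3% of all. With replicates 1 and 2 alone it was 6 of 11 (54.5%), and without the *Itga7* edge region 12 of 17 (70.6%). The 18 regions held 34 copies, 6 of them in the *Itga7* edge region, and 9 regions had 2 or more. Within 100 bp of the maximum it was 5 of 18 (27.8%), against 38.3%, and the nearest copy lay 192 bp away at the median, against 90 bp in the other consensus regions. The 5 regions with none were *Itga5* +7437, *Itga6* +41210, *Itgb1* -278, *Itgb5* +30561 and *Itgb5* +48561. Any CANNTG lay within 100 bp of the maximum in 77.8%, against 71.6%, and TGANTCA in 11.1%, against 13.0%. CAGCTG and CANNTG read the same on both strands, TGANTCA was read in both orientations by its symmetry, and each CAGCTG is also a CANNTG. A match in these windows is a match of letters only.

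Around the receptors, the same calls were counted at genes that work with them. Of 20 genes of linkers and signalling proteins, which tie integrin tails to actin and pass on adhesion signals, 17 had a Core target and 10 an Expanded target. They had 43 Core and 15 Expanded targets in all. *Pxn*, encoding the adhesion scaffold paxillin, had 3 Core and 3 Expanded targets, and *Ilk*, the integrin-linked kinase gene, had 0 Core and 3 Expanded targets. *Tns3*, a tensin gene, had 5 Core and 2 Expanded targets. Of 14 ligand genes 11 had a Core target and 1, *Vtn* (vitronectin), an Expanded target, and *Fn1* (fibronectin) had 1 Core target. Of 16 other integrin subunit genes 7 had a Core and 6 an Expanded target, with 2 Expanded targets at *Itgb4*. Of 4 genes of membrane partners all had a Core target, and *Cd9*, *Cd81* and *Adam12* also had an Expanded target. Beside them stand the 10 integrin members with 15 Core and 3 Expanded targets. For scale, 35.5% of protein-coding genes had a Core and 25.6% an Expanded target. The lists differ in gene length, and their counts were not tested against each other.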

How the data were processed

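The 6 deposited peak lists, 1 per library, were used, from C2C12 cells. The authors aligned reads to mm10 with nf-core/cutandrun, scaled coverage to CPM, removed blacklisted regions and called peaks per library with SEACR in relaxed mode. The deposited signal columns give each peak's total and maximum signal. Maximum signals were whole multiples of the worth of 1 alignment, which gave depths of 2868000 to 8030000 alignments. Heights were even in 94.8% to 99.2% of peaks, so alignments are not independent and the heights carry more error than their counts. Whether reads or fragments were counted, and whether a control library was used for calling, is not given in the sources used here.

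Overlapping or touching peaks were merged. Sequence and annotation came from GRCm38.p6 and GENCODE M21. Shared regions were compared with limma 3.58.1 (R 4.3.3, empirical Bayes with a trend, Benjamini-Hochberg adjustment), single regions with exact two-sided permutation tests over 20 assignments of the libraries and, added after seeing the data, sign-flip tests over 8 patterns within pairs. Depositors' labels gave groups and replicate numbers, and p-values measure the spread between these 3 biological replicates. Over shared regions, deviations from group means correlated at 0.485, 0.267 and 0.628 within numbers 1, 2 and 3. Across numbers 1 and 2 the correlations were 0.265 and 0.219, and across number 3 and the others between -0.560 and -0.321. So the libraries numbered 3 stood apart, while a pairing within number 2 was not told apart from one across numbers 1 and 2. The integrin genes and gene lists were chosen with earlier results of these data known. Named regions are, per gene, the highest region among those called in most libraries, every Expanded target and every no dox consensus region without a +dox one, and other regions named were chosen after their values were seen. Alternatives left out each library, equalised list length or threshold, and changed the consensus, overlap, flank, peak extent, rank, scaling and motif window. Scripts ran in Python 3.11.15 and were tested on simulated data.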

Additional observations from a re-analysis of the deposited data

How the results depend on the processing

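Of 96 recomputed values, 11 changed sign and 14 others moved past the spread of the libraries, past 1.5 times a count or past the interval of a share. The difference in integrin peaks per library, 11.7, ranged from -3.5 to 19.5 when single libraries were left out, turning negative without +dox replicate 3, and was -2 with lists of equal length, -0.333 at a common total-signal threshold and -1.5 with replicates 1 and 2 only. The count of Expanded targets, 3, ranged from 0 to 7 over the left-out libraries, being 0 without +dox replicate 3, 1 without +dox replicate 1, and 7, 6 and 6 without no dox replicates 1, 2 and 3. It was 1 with equal length, 1 at the common threshold, 1 with replicates 1 and 2 only and 9 with a flank of 50 kb. The Core count, 15, ranged from 10 to 15 over the left-out libraries. It was 9 when 3 of 3 libraries were asked for, 12 with no flank and 28 with 50 kb. With a library left out, a consensus needed both others of its group, which is stricter and bears on the Core and Expanded counts. The median percentile difference of shared integrin regions, 0.988, ranged from -3.26 to 11.9 over the left-out libraries, negative without no dox replicate 1 or +dox replicate 3. It was -5.57 with equal length, -5.83 among shared regions, -1.16 by total signal, -1.37 with replicates 1 and 2 only and -2.44 without the edge region. CAGCTG within 100 bp of the maximum was 27.8%. The limma fit called 0 regions higher in each fit run, with between 62 and 1158 at an unadjusted p below 0.05 in either direction. With the replicate block 1 region was lower, and with replicates 1 and 2 only 7 were lower, none of them an integrin region. The replicate block left the peak difference at 11.7 and the percentile difference at 0.988 by its construction, and it changed no other call. The fits over replicates 1 and 2 and without the edge region were chosen after seeing the data. The cause of each change was not tested. With 3 libraries a group, low regions of 6 to 34 alignments limit what a missing call can say.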
